A study of Mus musculus with 40 samples.

Results

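The response of mouse fat to a high-fat diet was compared between 2 depots, labelled subcutaneous and visceral. The comparison asks which genes the diet moved in both, and which it moved differently. It used 20 of the 40 RNA-seq libraries of the study, 5 in each of 4 groups of C57BL/6J mice: a normal diet or a high-fat diet (HFD), each with fat labelled subcutaneous and fat labelled visceral. The other 20 libraries came from the same diets with a drug (beta-carotene in the series description). They entered only the alternative fit with all 40 libraries. The labels give neither the age and sex of the mice nor the make and length of the diet. They also do not say which libraries came from separate animals, so p-values measure only the spread between these libraries. For each gene the HFD minus normal change was taken on the log2(TPM + 1) scale in each depot label. The interaction is the change labelled subcutaneous minus the change labelled visceral. TPM, the unit of the values, gives a gene's share of each library's transcripts, corrected for gene length and scaled to a common total. Of 55270 genes in the table, 7695 reached 10 TPM in at least 5 of the 20 libraries and were tested.

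White fat stores triglyceride in adipocytes, which enlarge when energy intake exceeds use. The enlarged depot also remodels its matrix and vessels and gains macrophages, and it secretes hormones such as leptin. Depots differ in this: epididymal fat, a visceral depot of male mice lined by mesothelium, is known for macrophages gathered around dying adipocytes, whereas inguinal fat, a subcutaneous depot, holds lymph nodes and lies on the muscle wall.

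The depot labels were first set against marker genes, and the markers ran opposite to the labels. Upk3b, a mesothelial gene of visceral fat, lay at 30.6 to 180.2 TPM in the 10 libraries labelled subcutaneous and at 0 to 0.462 TPM in the 10 labelled visceral. Hoxc10, a position gene of inguinal fat, lay at 0.0931 to 5.45 TPM in libraries labelled subcutaneous and at 17.6 to 47.9 TPM in those labelled visceral. The titles end in e or ewat for the label subcutaneous and in i for the label visceral, and the series description places the visceral fat at the epididymis. Depot names below are the labels as given. Exchanging them would turn the sign of every interaction and leave the shared responses as they are.

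Depth was approximately 4.84 to 8.05 M counted reads per library, estimated from the steps of low values, and every library had the same TPM total. In such bulk tissue, fewer cells of a type and less RNA per cell cannot be told apart. Some libraries stood apart by transcripts of other cells. The summed level of 19 T cell and NK cell genes was 665 to 1455 TPM in the normal libraries 94, 96 and 99 and the HFD library 23 labelled visceral, and 38.6 to 143 TPM in the other 16. The 16 skeletal muscle genes summed to 6130 and 17428 TPM in the normal libraries 92 and 98 labelled visceral, and to at most 4634 TPM elsewhere. All 5 normal libraries labelled visceral were therefore rich in lymphocyte or in muscle transcripts. The 20 macrophage genes summed to 14418 and 15539 TPM in the HFD libraries 22 and 50 labelled subcutaneous, and to 2301 to 6520 TPM in the other 18. Epididymis and testis genes summed to 4817 TPM in normal library 96 and 2817 TPM in HFD library 82, both labelled subcutaneous, and to 25.3 to 514 TPM elsewhere. Of 77 named genes called in the label subcutaneous, 22 were still called without HFD libraries 22 and 50. That omission also makes the HFD group smaller, so a lost call can come with a change of similar size. Without the epididymis-rich libraries, normal 96 and HFD 82, 63 of the 77 were still called. Of 59 named genes called in the label visceral, 21 were still called without the 4 lymphocyte-rich libraries, which leaves 2 normal and 4 HFD libraries. Without the 2 muscle-rich libraries 57 of the 59 were still called, and the count over all genes in that label was 2676 against 1236 with them. The part of these other cells in the results was not tested beyond such omissions.

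**Figure D1:**
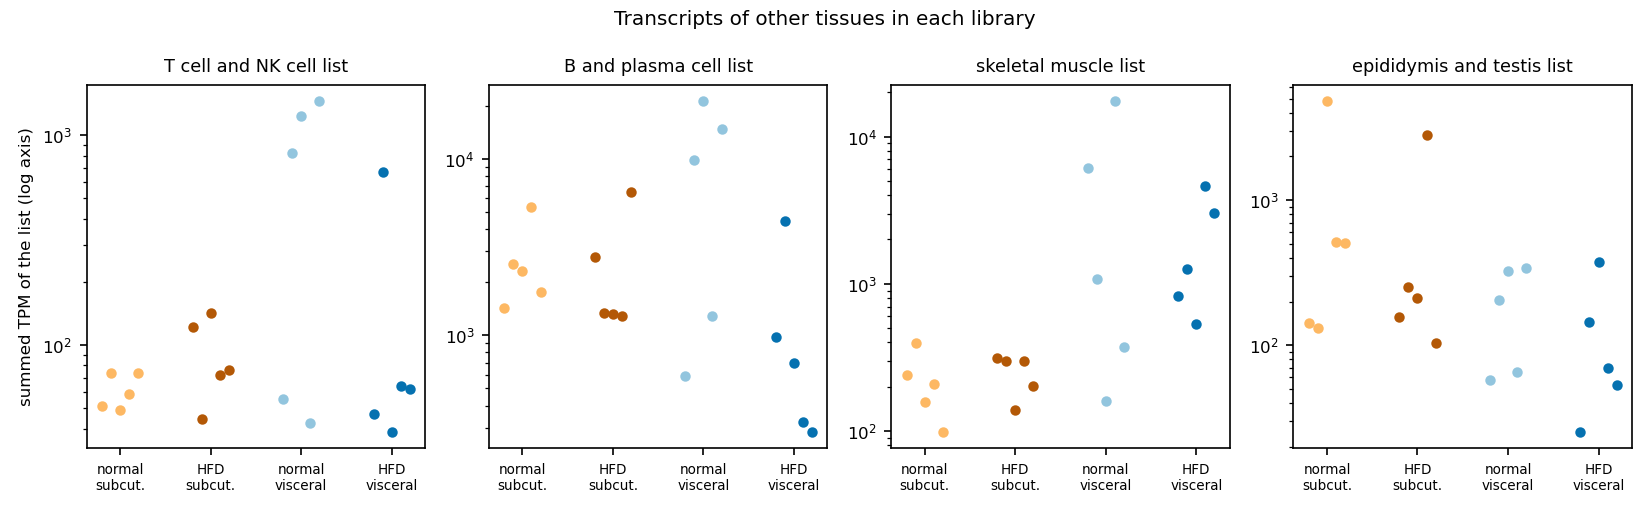
Summed TPM (log axis) of 4 lists of genes of other cells in each library, 5 points in each of 4 groups. T cell and NK cell genes reach 665 to 1455 TPM in 3 normal libraries and 1 HFD library labelled visceral, against 38.6 to 143 TPM elsewhere; muscle genes are highest in the remaining 2 normal libraries of that label.

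Across genes the 2 depots moved mostly the same way. With limma and Benjamini-Hochberg adjustment over all 7695 genes at 0.05, HFD changed 1283 genes (16.7%) in the label subcutaneous, 776 higher (10.1%) and 507 lower (6.59%). In the label visceral it changed 1236 genes (16.1%), 841 higher (10.9%) and 395 lower (5.13%). The fit takes a common spread per gene from all 4 groups, so the p-values of each label borrow the spread of the other. With each depot label fitted alone the counts were 1435 labelled subcutaneous and 360 labelled visceral, so the near-equal counts depend on that common spread. The subcutaneous split depended on scaling: it was 755 higher and 825 lower after quantile normalization, and 750 and 681 with library medians made equal. The visceral split was 1704 higher and 1748 lower with library weights, and 1291 and 1385 without the muscle-rich libraries. A shared call, past the threshold in both labels in the same direction, was made for 499 genes (6.48%), of which 352 rose (4.57%) and 147 fell (1.91%). These were 38.9% of the genes called in the label subcutaneous and 40.4% of those called in the label visceral. Both depots used different libraries, so no control library enters both changes. Omission of 1 library lowered the subcutaneous count to 739 without HFD library 22 and 850 without HFD library 50. It moved the visceral count between 642 without HFD library 50 and 1877 without normal library 98, and the shared count to 322 without HFD library 50 labelled visceral. Opposite calls were made for 7 genes (0.091%). Normal and HFD libraries did not overlap for 1238 genes (16.1%) in the label subcutaneous, for 514 (6.68%) in the label visceral and for 239 (3.11%) in both.

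Genes called in a single depot tended to lean the same way in the other. The 422 genes that rose only by the subcutaneous call had a median change of 0.64 there and 0.24 in the label visceral, and 86.7% of them had the same sign. The 355 genes that fell only by the subcutaneous call had medians of -0.66 and -0.21, and 79.2% shared the sign. For the 484 genes that rose only by the visceral call the medians were 0.21 in the label subcutaneous and 0.60 in the label visceral, and for the 246 that fell only by it they were -0.26 and -0.58. Over all tested genes 69.5% had the same sign, with median changes of 0.02 labelled subcutaneous and -0.02 labelled visceral. As a description across the 7695 genes, which are not independent, Pearson's r of the changes was 0.45 and Spearman's rho 0.47.

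The test of the difference itself passed for 1 gene of 7695 (0.013%). At an unadjusted p of 0.05, 961 genes (12.5%) passed, 464 with a positive (6.03%) and 497 with a negative (6.46%) interaction. A missed threshold does not show equal responses: the 95% interval of the interaction had a median half-width of 0.47 on the log2 scale over all genes. Among the 499 shared genes, 379 (76.0%) had an interval that lay wholly between -1 and 1. Over all tested genes 5264 (68.4%) had such an interval. The shared genes were chosen by calls in the same direction, so their share describes them and does not show equal responses. The count of interaction calls varied with the setting, also where no library was left out. It was 848 with library weights, 61 with a block on shared title numbers and 16 after quantile normalization. It was 0 without the lymphocyte-rich libraries, with 564 genes at an unadjusted p of 0.05, and 0 without the macrophage-rich ones, with 646. It was 808 without the 2 muscle-rich libraries, which leaves the normal visceral group with its 3 lymphocyte-rich libraries only.

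**Figure D2:**
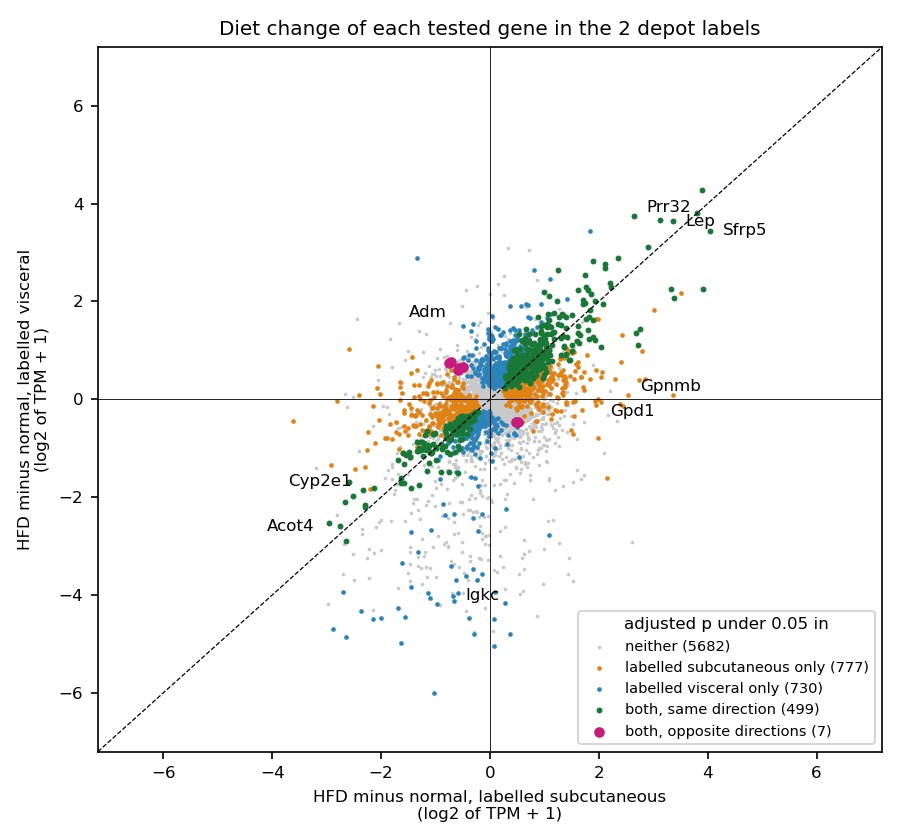
HFD minus normal change on the log2(TPM + 1) scale of each of the 7695 tested genes, labelled subcutaneous on the x axis and labelled visceral on the y axis, coloured by call, with the line of equal change dashed. The 499 shared calls lie along the line in 2 opposite quadrants, and the 7 opposite calls lie close to the origin.

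Among the shared increases, Sfrp5 and Lep had the largest smaller-of-both change. Sfrp5 encodes a secreted antagonist of Wnt ligands and Lep encodes leptin, the adipocyte hormone that reports fat stores. Sfrp5 stood at 43.7, 111, 88.7, 26.4 and 22.1 TPM in the normal and 809, 532, 913, 1094 and 792 TPM in the HFD libraries labelled subcutaneous. The libraries labelled visceral held it at 67.6, 32.7, 27.3, 78.9 and 25.6 TPM on the normal diet and 878, 125, 1055, 286 and 624 TPM on HFD. Values are listed in the order of the library numbers, which are 91, 92, 96, 98 and 99 (normal) and 22, 23, 50, 82 and 83 (HFD) for the label subcutaneous. They are 92, 94, 96, 98 and 99 (normal) and 22, 23, 50, 51 and 83 (HFD) for the label visceral. Every HFD library exceeded every normal library in both depots, and HFD library 23 labelled visceral was the lowest of the HFD values. The log2 change was 4.04 (SE 0.54, adjusted p 0.000322) and 3.44 (SE 0.54, adjusted p 0.000771), and their difference was 0.60 with a 95% interval of -1.01 to 2.21.

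Lep stood at 68.1, 169, 142, 82 and 71.1 TPM in the normal and 1855, 534, 1459.9, 1415 and 566 TPM in the HFD libraries labelled subcutaneous. Libraries labelled visceral had it at 145, 49.9, 46.4, 91.7 and 10.2 TPM on the normal diet and 1792, 218, 1651, 202 and 820.3 TPM on HFD. Groups did not overlap in either depot, although HFD libraries 23 and 51 labelled visceral, at 218 and 202 TPM, stood near the highest normal values. The change was 3.36 (SE 0.69, adjusted p 0.00391) labelled subcutaneous and 3.63 (SE 0.69, adjusted p 0.00238) labelled visceral. The difference between them was -0.27, with an interval of -2.32 to 1.78. Without the macrophage-rich libraries the subcutaneous change was 2.91 and no longer past the threshold (adjusted p 0.0615).

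Npr3 stood at 36.5, 79.2, 56.9, 54.1 and 46.8 TPM in the normal and 200.3, 195, 185, 209 and 206 TPM in the HFD libraries labelled subcutaneous. Npr3 encodes the receptor that clears natriuretic peptides, which otherwise stimulate lipolysis. In the libraries labelled visceral it stood at 48.2, 15.9, 14.6, 30.1 and 9.64 TPM on the normal diet and 231, 68.0, 259.9, 74.4 and 240.3 TPM on HFD. The HFD values labelled subcutaneous lay within a narrow band, and those labelled visceral fell into 3 high and 2 low libraries, all above the normal ones. The change was 1.89 (SE 0.41, adjusted p 0.00503) and 2.82 (SE 0.41, adjusted p 0.000435). Bmp3, a bone morphogenetic protein family ligand, rose by 2.35 and 2.90. Inhbb, which encodes a subunit of activin B, rose by 1.0 and 2.19 (adjusted p 0.0149 and 0.00012). The interaction of Inhbb was -1.2 with an interval of -1.98 to -0.42, which did not pass adjustment (adjusted p 0.211).

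The other increases named by rank were Prr32 (2.64 and 3.74), Slc5a7, a choline transporter (3.91 and 2.26), Lctl, a lactase-like protein (3.33 and 2.24), and Tmem45b (2.20 and 2.38), each given labelled subcutaneous first. Mup-ps21, a major urinary protein pseudogene, changed by 2.90 and 3.11, but its reads cannot be separated from near-identical family members and its value is uncertain. Without the macrophage-rich libraries the subcutaneous calls ended for Prr32 (change 2.64, adjusted p 0.0504), Bmp3 (1.91, adjusted p 0.0627), Inhbb (0.83, adjusted p 0.134) and Slc5a7 (3.41, adjusted p 0.0634). The visceral call of Slc5a7 ended without either set of libraries, at changes of 2.26 and 2.46, and that of Lctl without the lymphocyte-rich ones, at 2.10. Sfrp5, Npr3 and Tmem45b kept their call in both depots under all 35 alternatives tried.

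The largest shared decreases by the smaller of both changes were those of Rasd1, Cyp2f2 and Acot4. Acot4 stood at 76.2, 42.8, 52.1, 33.4 and 46.2 TPM in the normal and 2.53, 8.06, 3.67, 5.73 and 9.39 TPM in the HFD libraries labelled subcutaneous. Acot4 encodes a peroxisomal thioesterase that releases succinate and other acids from coenzyme A. The libraries labelled visceral held it at 44.1, 40.7, 31.4, 20.3 and 19.8 TPM on the normal diet and 1.89, 2.97, 6.29, 6.01 and 6.28 TPM on HFD. No HFD library reached a normal one in either depot. The change was -2.95 (SE 0.34, adjusted p 0.000274) and -2.53 (SE 0.34, adjusted p 0.000234), with a difference of -0.43 (-1.42 to 0.57). Cyp2e1, a cytochrome P450 that oxidises ethanol and ketones, stood at 5124, 3969, 4073, 4946 and 4369 TPM in normal and 278, 2722, 205, 1279 and 2729 TPM in HFD libraries labelled subcutaneous. The macrophage-rich libraries 22 and 50 held the lowest of these HFD values, and all 5 lay below the normal ones. Libraries labelled visceral had it at 5921, 4509, 3149, 5028 and 3972 TPM on the normal diet and 703, 1915, 582, 2736 and 1249 TPM on HFD. Its changes were -2.34 (SE 0.61, adjusted p 0.0143) and -1.86 (SE 0.61, adjusted p 0.0452). The visceral call of Cyp2e1 ended under 20 of 35 alternatives, among them the omission of any normal library, and the subcutaneous call ended without the macrophage-rich libraries (change -1.08, adjusted p 0.135).

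Cyp2f2, another cytochrome P450, differed in level between the depots. It stood at 6.97 to 19.8 TPM in normal and 0.207 to 3.21 TPM in HFD libraries labelled subcutaneous, and at 64.7 to 103 and 1.76 to 39.99 TPM in those labelled visceral. The changes were -2.75 and -2.60, with an interaction of -0.16 (-1.80 to 1.49). Rasd1, a Ras-related gene that glucocorticoids induce, changed by -2.65 and -2.89. Tst, the mitochondrial sulfurtransferase rhodanese, changed by -1.58 and -1.71, and Sephs2, which makes the selenium donor for selenoproteins, by -1.48 and -1.17. B3galt2, a galactosyltransferase, changed by -1.64 and -1.60, and Cd24a, a cell surface glycoprotein, by -1.57 and -1.31. Without the macrophage-rich libraries the subcutaneous call also ended for Cyp2f2 (change -2.26), Rasd1 (-2.48), B3galt2 (-1.11) and Cd24a (-1.34). Without the lymphocyte-rich libraries the visceral call ended for Rasd1 (-2.31), B3galt2 (-1.81) and Cd24a (-0.90). Acot4, Tst and Sephs2 kept both calls under all 35 alternatives.

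**Figure D3:**
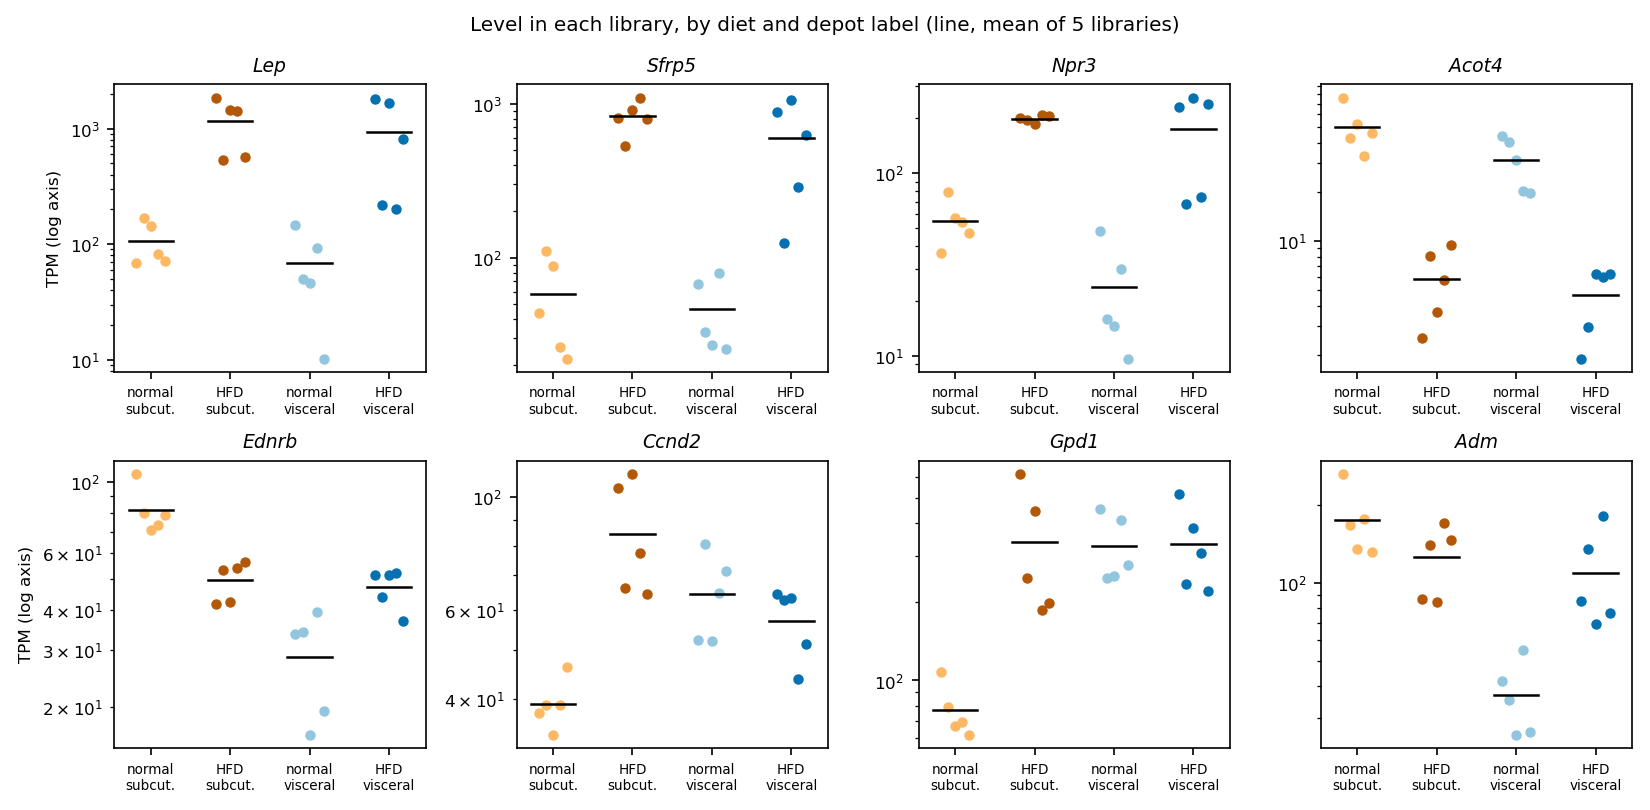
TPM (log axis) of 8 genes in each library by diet and depot label, with a line at the mean of 5 libraries. In the upper row Lep, Sfrp5 and Npr3 are higher and Acot4 lower on HFD in both depots without overlap; in the lower row Ednrb falls in one depot label and rises in the other, Ccnd2 and Gpd1 rise by the subcutaneous call alone and Adm by the visceral one alone.

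The starts of Lep and Sfrp5, which rose together, and of Ednrb, which had opposite calls, are shown for reference to their promoters. RefSeq coordinates are on GRCm38.p6, from 250 bases before to 50 bases after the start, 5′ to 3′ on the gene's strand. Capitals mark GGGCGG (the GC box) and CCAAT, read as ATTGG where it lies on the other strand.
Lep, chr6:29059971-29060270, plus strand: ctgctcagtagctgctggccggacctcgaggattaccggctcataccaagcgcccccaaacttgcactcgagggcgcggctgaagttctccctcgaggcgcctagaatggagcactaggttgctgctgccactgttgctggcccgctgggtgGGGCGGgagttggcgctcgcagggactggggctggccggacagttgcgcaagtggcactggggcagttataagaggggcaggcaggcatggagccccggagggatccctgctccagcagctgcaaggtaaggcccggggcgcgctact
Sfrp5, chr19:42202203-42202502, minus strand: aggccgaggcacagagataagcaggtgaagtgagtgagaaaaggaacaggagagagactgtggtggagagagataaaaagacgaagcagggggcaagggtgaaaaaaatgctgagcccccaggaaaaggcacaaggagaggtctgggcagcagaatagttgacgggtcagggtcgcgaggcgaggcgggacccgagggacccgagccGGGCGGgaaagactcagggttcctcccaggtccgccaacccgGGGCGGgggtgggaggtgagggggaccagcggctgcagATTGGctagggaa
Ednrb, chr14:103843652-103843951, minus strand: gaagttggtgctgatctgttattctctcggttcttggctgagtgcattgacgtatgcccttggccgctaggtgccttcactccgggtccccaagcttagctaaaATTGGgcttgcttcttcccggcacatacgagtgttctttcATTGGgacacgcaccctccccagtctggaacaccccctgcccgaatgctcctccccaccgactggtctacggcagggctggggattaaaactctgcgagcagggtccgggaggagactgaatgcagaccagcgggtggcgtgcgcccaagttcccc
The Lep window held 1 GGGCGG, the Sfrp5 window 2 GGGCGG and 1 CCAAT, and the Ednrb window 2 CCAAT. No window held TATAAA. Of 27025 promoters of this length, 35.9% held GGGCGG, 37.9% CCAAT and 14.2% TATAAA on either strand. A match describes these letters only.

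Some matrix genes rose in both depots. Of 24 tested collagen and matrix genes, 8 rose and 1 fell in the label subcutaneous and 13 rose in the label visceral, 7 of them in both, with medians of 0.55 and 0.86 beside 0.02 and -0.02 over all tested genes. Col6a2 rose by 1.39 and 0.90, and Col15a1, a basement membrane collagen, by 1.93 and 1.21. Sparc, a collagen-binding matricellular protein, rose by 1.01 and 1.24. Of 14 proteoglycan and matricellular genes, 2 rose in the label subcutaneous and 10 in the label visceral (medians 0.30 and 0.88). Both of the 2 were also called in the label visceral: Prelp rose by 2.11 and 2.68, and Ccn5 by 2.07 and 1.94. The visceral counts moved both ways with the normal libraries kept. Without the muscle-rich libraries they were 21 of 24 and 11 of 14, with medians of 1.14 and 1.09. They fell to 1 of 24 and 1 of 14 without the lymphocyte-rich libraries, with medians of 0.39 and 0.65. The visceral calls (limma) ended there for Col6a2 (change 0.40), Col15a1 (1.08), Sparc (0.83, adjusted p 0.0563) and Ccn5 (1.57). Without the macrophage-rich libraries the subcutaneous counts were 3 of 24 and 1 of 14. The subcutaneous calls ended there for Sparc (0.88, adjusted p 0.0841) and Ccn5 (1.79, adjusted p 0.078). Prelp kept both calls under both omissions. Of 13 matrix proteases and inhibitors 1 rose and 2 fell in the label subcutaneous and 1 rose in the label visceral (medians 0.07 and 0.45). Over all tested genes 10.1% rose and 6.59% fell in the label subcutaneous, and 10.9% rose and 5.13% fell in the label visceral. These shares stand beside every list count here and below. The few protease calls are not told apart from them.

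Caveolae are membrane pits that adipocytes carry in large numbers. Of 7 tested caveola genes, 4 rose in the label subcutaneous and 5 in the label visceral, and none fell. Cav1 rose by 0.99 and 1.53, Cav2 by 1.05 and 1.34, Cavin1 by 0.59 and 0.91, and Cavin3 by 1.23 and 2.0. Cavin3 lay at 128 to 219.9 TPM in normal and 346 to 385 TPM in HFD libraries labelled subcutaneous, and at 60.6 to 176 and 227 to 633 TPM in those labelled visceral. Ehd2, which stabilises caveolae, rose by 1.08 in the label visceral and had a value of 0.55 in the label subcutaneous (adjusted p 0.0635). Without the macrophage-rich libraries 0 of 7 passed in the label subcutaneous by limma (5 at an unadjusted p of 0.05), while the median was 0.61 against 0.59 with them. Without the epididymis-rich libraries 1 of 7 passed in the label subcutaneous (5 at an unadjusted p of 0.05), with a median of 0.61. Without the lymphocyte-rich libraries 3 of 7 passed in the label visceral.

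Genes of fat expansion, many of them imprinted, moved in both directions in one depot label and in one direction in the other. Of 12 tested, 4 rose and 3 fell in the label subcutaneous, and 7 rose in the label visceral, 4 of them in both. Mest, a marker of growing fat, changed by 3.44 (SE 0.71, adjusted p 0.00418) in the label visceral and had a value of 1.85 (adjusted p 0.0827) in the label subcutaneous. The visceral call of Mest ended without the lymphocyte-rich libraries (change 3.36, adjusted p 0.0552), and 4 genes of the list rose in that label. Grb10, an imprinted adapter that dampens insulin receptor signalling, fell by 0.97 on the log2 scale in the label subcutaneous (adjusted p 0.00254). It had a value of 0.16 in the label visceral, and its interaction was -1.13 (-1.67 to -0.58, adjusted p 0.0914). The median interaction of the list was -0.87, against 0.02 over all tested genes, and was -0.48 to -1.15 in the scalings and left-out sets tried.

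Opposite calls are given here for 6 genes, none of which passed the interaction test (limma). Ednrb, an endothelin receptor that vessels and glia carry, stood at 106, 80.0, 70.9, 73.6 and 78.8 TPM in normal and 41.6, 53.2, 42.3, 54 and 56.2 TPM in HFD libraries labelled subcutaneous. In the libraries labelled visceral it stood at 33.5, 34.2, 16.3, 39.4 and 19.4 TPM on the normal diet and 51.3, 43.8, 51.2, 52.1 and 36.8 TPM on HFD. The groups were apart in the label subcutaneous and overlapped in the label visceral, where HFD library 83 lay below normal library 98. The changes were -0.71 (SE 0.20, adjusted p 0.0198) and 0.77 (SE 0.20, adjusted p 0.0146), and the interaction was -1.48 (-2.06 to -0.89, adjusted p 0.064). Lrrc32, which holds latent TGF-beta on the cell surface, changed by -0.58 and 0.63. Pls3, an actin bundler, changed by -0.50 and 0.66, and Mall, a membrane raft protein, by -0.75 and 0.74. Pold4, a subunit of DNA polymerase delta, changed by 0.51 and -0.46, and the ribosomal gene Rpl39 by 0.48 and -0.47. Rpl39 has many processed copies, so its value is uncertain. The visceral call ended for all 6 without the lymphocyte-rich libraries, with changes of 0.37 (adjusted p 0.275) for Ednrb and 0.32 (adjusted p 0.397) for Lrrc32. Without the macrophage-rich libraries the subcutaneous call ended for all 6, with changes of -0.56 (adjusted p 0.165) and -0.44 (adjusted p 0.212) for these genes. Pls3, Mall and Pold4 were named after their values were seen.

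Among the largest positive interactions, where the change labelled subcutaneous lay above that labelled visceral, were those of Gpd1 and Agpat2, and neither passed adjustment. Both belong to the list of triglyceride synthesis and storage, in which 9 of 19 interactions were positive and 10 negative, with a median of -0.07. That median was -0.25 to 0.28 in the scalings and left-out sets tried. Gpd1 stood at 107, 79.5, 66.8, 69.1 and 61.7 TPM in the normal and 616, 246, 446, 186 and 197 TPM in the HFD libraries labelled subcutaneous. Gpd1 makes the glycerol 3-phosphate on which triglyceride is built. The libraries labelled visceral held it at 451, 246, 251, 412 and 275 TPM on the normal diet and 514, 234, 384, 308 and 220.0 TPM on HFD. The normal libraries labelled subcutaneous were the low ones, and the other 3 groups overlapped. The changes were 1.99 (SE 0.31, adjusted p 0.000879) and -0.00 (SE 0.31, adjusted p 0.996), and the interaction was 1.99 (1.06 to 2.92, adjusted p 0.0891). Agpat2, an acyltransferase of the same pathway, fell by 0.72 on the log2 scale in the label visceral (adjusted p 0.00717). It had a value of 0.48 in the label subcutaneous (adjusted p 0.051), and its interaction was 1.2 (0.72 to 1.69, adjusted p 0.064). Without the lymphocyte-rich libraries the visceral change of Agpat2 was -0.52 (adjusted p 0.183).

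Of 13 tested genes of fatty acid synthesis, 6 rose and 1 fell in the label subcutaneous and 2 rose in the label visceral, with medians of 0.56 and 0.13. Fasn, fatty acid synthase, stood at 116, 155, 232, 169 and 144 TPM in normal and 693, 679, 494, 245 and 355 TPM in HFD libraries labelled subcutaneous, which did not overlap. In the label visceral the groups overlapped, at 145 to 314 TPM on the normal diet and 112 to 483 TPM on HFD. The changes were 1.52 (SE 0.36, adjusted p 0.00811) and -0.05 (SE 0.36, adjusted p 0.941), with an interaction of 1.57 (0.50 to 2.63, adjusted p 0.219). Of 19 genes of triglyceride synthesis and storage, 2 rose and 4 fell in the label subcutaneous and 1 rose and 5 fell in the label visceral, 3 falling in both. Dgat2, which adds the last acyl chain, rose by 2.05 in the label subcutaneous. Gpam, the first acyltransferase, changed by -1.26 and -1.04, Dgat1 by -0.75 and -1.48, and Pck1, which supplies glycerol from small precursors, by -1.60 and -1.11. Without the macrophage-rich libraries 0 of the 13 synthesis genes passed in the label subcutaneous by limma (9 at an unadjusted p of 0.05), with a median of 0.72. The call of Fasn ended there (change 1.29, adjusted p 0.0887), as did the subcutaneous calls of Dgat2 (1.78), Gpam (-1.01), Dgat1 (-0.65) and Pck1 (-1.11).

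Adipocyte hormones other than leptin moved less evenly. Of 15 tested, 4 rose and 2 fell in the label subcutaneous and 6 rose in the label visceral. Cfd, which encodes adipsin, fell from 33826 to 9733 TPM on average in the label subcutaneous (log2 change -2.29 (SE 0.57, adjusted p 0.0112)). In the label visceral its change was -1.37 (SE 0.57, adjusted p 0.106), with an interaction interval of -2.62 to 0.78. The HFD libraries 22 and 50 held the lowest subcutaneous values. Without them the subcutaneous change of Cfd was -1.21 and its call ended (limma, adjusted p 0.132). In that fit the visceral change of -1.37 was past the threshold (adjusted p 0.0257). Adipoq, adiponectin, had changes of 0.10 and 0.36, neither past the threshold. Gpx3, a secreted selenoprotein, changed by -1.72 (SE 0.37, adjusted p 0.00503) and -0.47 (SE 0.37, adjusted p 0.388). Without libraries 22 and 50 its subcutaneous change was -1.31 and the call ended (limma, adjusted p 0.0742). Ucp1, the heat-producing uncoupler of brown fat, did not reach the filter. Adm, adrenomedullin, a vasodilator peptide, stood at 264, 168, 136, 178 and 132 TPM in normal and 86.8, 140.2, 84.6, 170.3 and 147 TPM in HFD libraries labelled subcutaneous, which overlapped. Libraries labelled visceral had it at 41.6, 35.2, 25.8, 55.3 and 26.6 TPM on the normal diet and 85.4, 136, 69.4, 181 and 76.6 TPM on HFD. The visceral groups did not overlap and the change there was 1.5 (SE 0.29, adjusted p 0.00229). The interaction of Adm was -1.99 (-2.84 to -1.14, adjusted p 0.0703). Without the lymphocyte-rich libraries the visceral change was 0.97 (adjusted p 0.171).

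**Figure D4:**
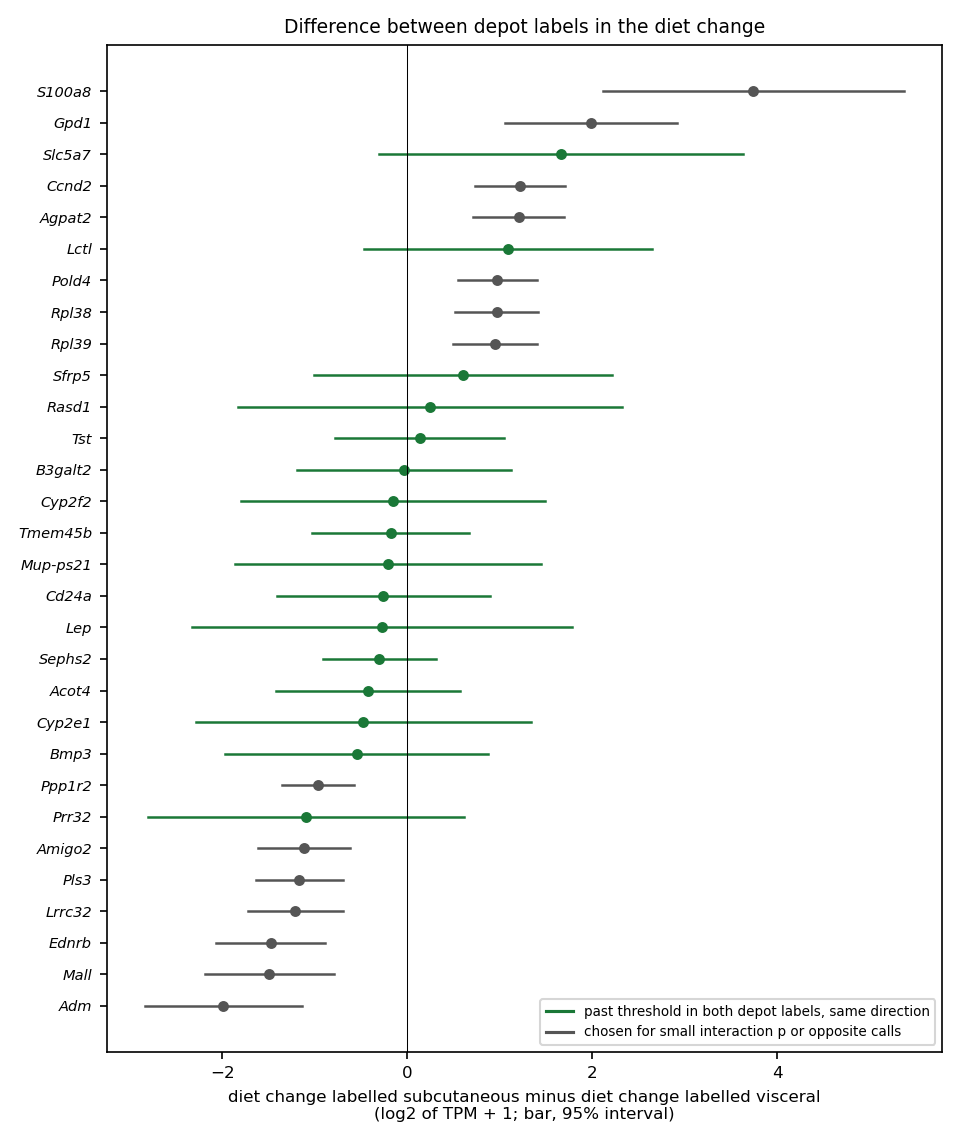
Interaction (change labelled subcutaneous minus change labelled visceral, log2 of TPM + 1) of 30 genes with its 95% interval. The interval of Ednrb runs from -2.06 to -0.89, and the intervals of shared genes such as Lep (-2.32 to 1.78) cross 0 and are wide.

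Genes of lipid-associated macrophages, which surround dying adipocytes, rose in the label subcutaneous. Of 21 tested, 12 rose there and 2 in the label visceral, with medians of 1.25 and 0.22 and a median interaction of 0.64. Over all tested genes 10.1% rose in the label subcutaneous and 10.9% in the label visceral, so the visceral count lay near that share. Itgax, the CD11c integrin, stood at 4.71, 6.15, 5.66, 7.94 and 6.34 TPM in normal and 132, 10.3, 204, 16.6 and 14.5 TPM in HFD libraries labelled subcutaneous. Gpnmb, a lysosomal glycoprotein of these cells, stood at 27.9, 21.1, 22.5, 45.5 and 29.6 and 701, 83.9, 899, 55.6 and 44.4 TPM in the same libraries. For both genes libraries 22 and 50 held the high values, and the other 3 lay far below those, at 10.3 to 16.6 TPM for Itgax and 44.4 to 83.9 TPM for Gpnmb. In the label visceral Itgax lay at 2.80 to 12.2 TPM on the normal diet and 2.43 to 11 TPM on HFD. The changes of Itgax were 2.44 (SE 0.65, adjusted p 0.0159) and -0.13 (SE 0.65, adjusted p 0.907), with an interaction of 2.57 (0.63 to 4.50, adjusted p 0.284). Without libraries 22 and 50 the subcutaneous change of Itgax was 1.04 (adjusted p 0.151), that of Gpnmb 1.04 (adjusted p 0.154) and that of Trem2, the lipid receptor of these cells, 1.02 (adjusted p 0.208). The count fell to 4 of 21 and the median interaction to 0.15.

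Lysosome genes followed the same pattern. Of 20 tested, 9 rose in the label subcutaneous, and 0 rose and 1 fell in the label visceral (limma, adjusted p under 0.05). All 20 interactions were positive, with a median of 0.37, which was 0.06 without libraries 22 and 50. Psap, the precursor of activators of lipid-degrading enzymes, changed by 1.09 (SE 0.26, adjusted p 0.00811) and 0.10 (SE 0.26, adjusted p 0.812). Its subcutaneous change was 0.51 without libraries 22 and 50 and still past the threshold (adjusted p 0.0357). Of 18 general macrophage genes 1 rose in the label subcutaneous and 0 in the label visceral, with medians of 0.77 and 0.05. Neither count exceeded the share over all tested genes (10.1% and 10.9%). Mpeg1, a pore-forming protein of macrophages, stood at 2369.8, 547, 3159, 784 and 619 TPM in the HFD libraries labelled subcutaneous against 372 to 653 TPM in normal ones, again with libraries 22 and 50 apart. Resident macrophage genes had medians of -0.18 and 0.72, and of 10 tested 1 rose in the label visceral, near the 10.9% over all tested genes. Their visceral median was 0.24 without the lymphocyte-rich libraries, with 0 called, and 1.06 without the muscle-rich ones, with 5 called. Interferon-induced genes rose in 6 of 15 and 1 of 15, with medians of 0.93 and 0.35, and without libraries 22 and 50 the subcutaneous count was 1 of 15 with a median of 1.23. Without the epididymis-rich libraries, normal 96 and HFD 82, the subcutaneous count was 3 of 15 with a median of 0.52. The median interaction of the list was then 0.18, against 0.76 with all libraries and 0.91 without libraries 22 and 50.

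Interactions of vessel genes were negative. Of 13 tested endothelial genes, 3 fell in the label subcutaneous and 2 rose in the label visceral, with median changes of -0.16 and 0.19, and the subcutaneous median was -0.01 without the macrophage-rich libraries. All 13 interactions were negative, with a median of -0.53. The summed TPM of the list averaged 2873 in normal and 3089.6 in HFD libraries labelled subcutaneous, and 2029.8 and 3249.8 in those labelled visceral. Pecam1, the CD31 junction protein, changed by -0.65 (SE 0.14, adjusted p 0.00503) and 0.13 (SE 0.14, adjusted p 0.546), with an interaction of -0.78 (-1.19 to -0.36, adjusted p 0.118). Eng, a TGF-beta coreceptor, changed by -0.72 and -0.02, and Sox17, an arterial transcription factor, by -0.59 and 0.04. Cldn5, a tight junction protein, rose by 1.01 in the label visceral, and Aqp1, a water channel, by 0.67. The median interaction was -0.39 to -0.67 in the scalings and left-out sets tried. By limma 0 of the 13 passed in the label subcutaneous without the macrophage-rich libraries and 0 in the label visceral without the lymphocyte-rich ones, with 3 at an unadjusted p of 0.05 in each. Of 17 TGF-beta and BMP genes 1 rose and 2 fell in the label subcutaneous and 5 rose and 1 fell in the label visceral. Bmp2 rose by 0.81 in the label visceral and had an interaction of -1.07 (-1.62 to -0.52, adjusted p 0.107).

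Further negative interactions were those of Ppp1r2, a regulator of protein phosphatase 1, and Amigo2, an adhesion protein. Ppp1r2 fell by 0.72 on the log2 scale in the label subcutaneous and had a value of 0.25 in the label visceral (interaction -0.97, -1.35 to -0.58, adjusted p 0.064). Amigo2 fell by 1.34 on the log2 scale in the label subcutaneous and had a value of -0.22 in the label visceral (interaction -1.12, -1.61 to -0.62, adjusted p 0.0754). Among positive ones, Ccnd2, cyclin D2, stood at 37.6, 39.0, 34.0, 39.0 and 46.3 TPM in normal and 104, 66.1, 111, 77.6 and 64.3 TPM in HFD libraries labelled subcutaneous, without overlap. In the label visceral it lay at 52 to 80.7 and 43.9 to 64.3 TPM. Its changes were 1.06 (SE 0.16, adjusted p 0.00079) and -0.16 (SE 0.16, adjusted p 0.508), and the interaction was 1.22 (0.74 to 1.71, adjusted p 0.064). Rpl38, a ribosomal gene whose processed copies make its value uncertain, had an interaction of 0.96.

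S100a8 and antibody genes were high in several normal libraries labelled visceral. S100a8, a calcium-binding protein of neutrophils, stood at 8.48, 15, 11, 5.68 and 10.5 TPM in normal and 81.6, 33.1, 50.7, 48.4 and 31.8 TPM in HFD libraries labelled subcutaneous. In the libraries labelled visceral it stood at 11.7, 127, 131, 58.4 and 119.7 TPM on the normal diet and 55.5, 28.3, 21.5, 12.2 and 11.4 TPM on HFD. The subcutaneous groups did not overlap, and the interaction was 3.74 (2.11 to 5.37, adjusted p 0.0736). Without the lymphocyte-rich libraries the changes by limma were 2.14 labelled subcutaneous (adjusted p 0.00574) and -0.37 labelled visceral (adjusted p 0.805). Without the macrophage-rich ones they were 1.83 (adjusted p 0.116), where the subcutaneous call ended, and -1.60 (adjusted p 0.0614). Igkc, the kappa light chain of antibodies, stood at 414, 6978, 17127, 876 and 9952 TPM in the normal libraries labelled visceral, where 92 and 98 were the low ones. It stood at 118, 3016, 121, 122 and 71.3 TPM in the HFD ones, where 23 was the high one. Its visceral change was -4.02 (SE 1.06, adjusted p 0.0166), and -2.50 without the lymphocyte-rich libraries, where the call ended (adjusted p 0.0739). Of 8 B cell genes 3 fell in the label visceral, with a median of -3.09, and of 24 cytosolic ribosomal protein genes 8 fell there, with a median of -0.42. The summed T cell and NK cell level ran from 42.4 to 1455 TPM in the normal and from 38.6 to 665 TPM in the HFD libraries labelled visceral, and none of the 19 genes was at 0 in every library of a group. Without the 4 lymphocyte-rich libraries 0 of 8 B cell genes were called there by limma (2 at an unadjusted p of 0.05), with a median of -0.84. For ribosomal genes it was 0 of 24 (2 at an unadjusted p of 0.05), with a median of -0.19. Ribosomal genes have many processed copies, so the single members are uncertain.

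**Figure D5:**
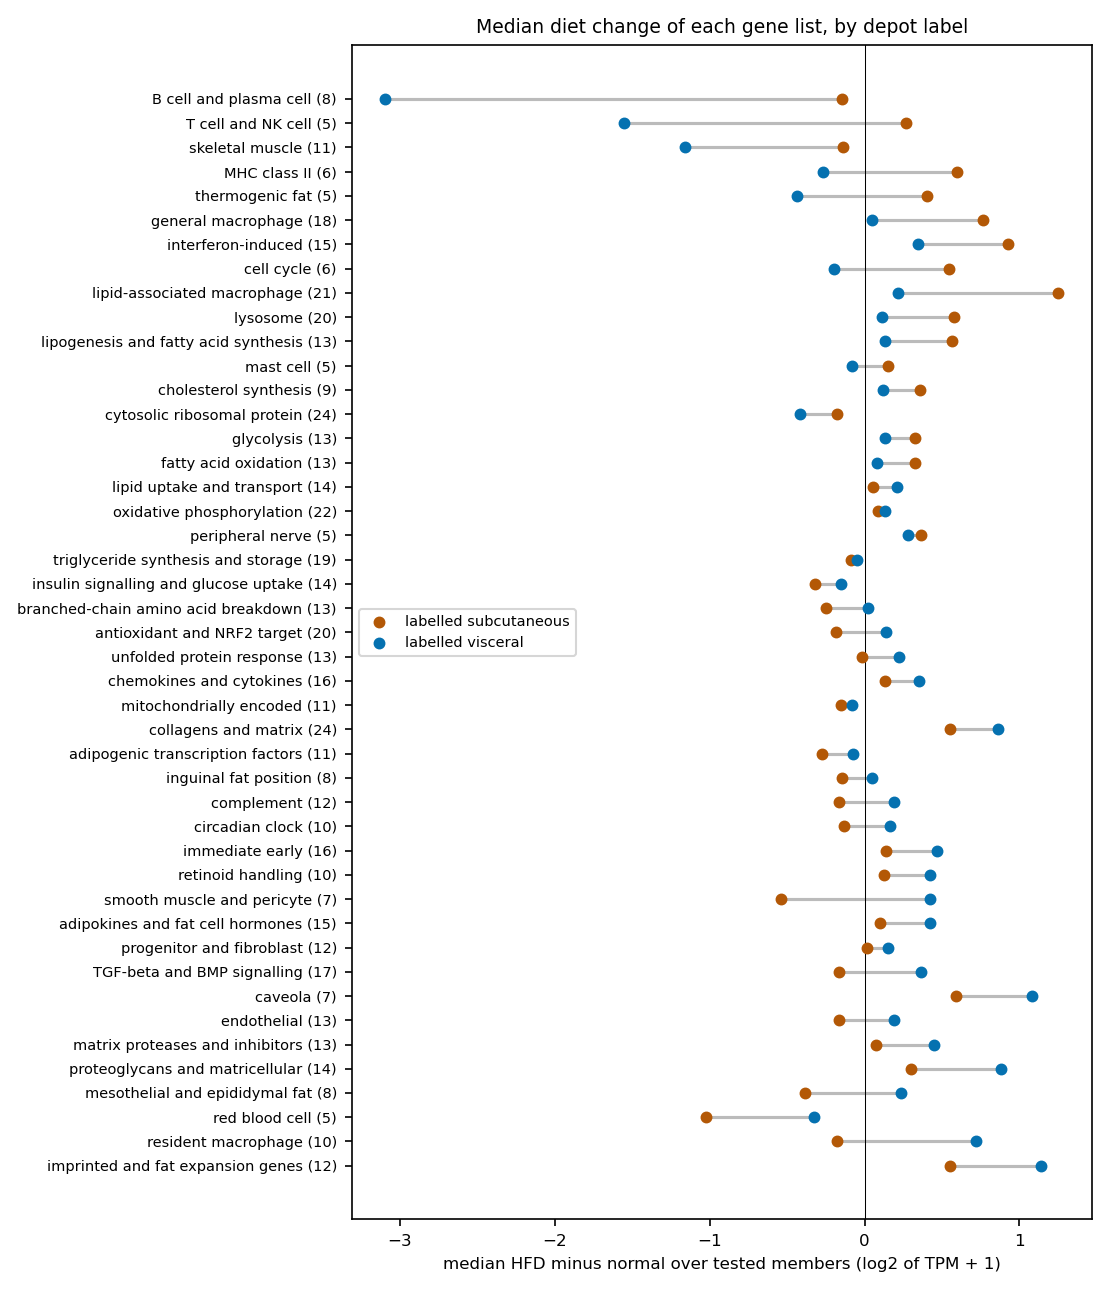
Median HFD minus normal change (log2 of TPM + 1) of each gene list over its tested members (number in brackets), with one point per depot label and lists ordered by the median interaction. Lipid-associated macrophage genes lie at 1.25 labelled subcutaneous and 0.22 labelled visceral, and imprinted and fat expansion genes lie further right in the label visceral.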

How the data were processed

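RNA-seq libraries of mouse fat were taken as labelled, 5 in each of 4 groups. The authors deposited 1 table of TPM values, which have the same total in every library. Per the submitters' processing notes, FastQC 0.11.9, STAR 2.7.8, featureCounts 2.0.3 and DESeq2 1.32.0 were used with build GRCm39. The annotation and filters are not given in the sources used here, nor whether counting used strand. No column of other samples was present (0 unused).

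Values were converted to log2(TPM + 1), which understates changes of low genes. Genes with 10 TPM or more in at least 5 of the 20 libraries entered a model of 4 group means (limma 3.58.1, R 4.3.3) with a trended and robust prior. P-values were two-sided and Benjamini-Hochberg adjusted over all tested genes. Steps were tested on simulated data. Depth was read from TPM multiplied by exon length (GENCODE on GRCm38). Since 24.1 to 28.8% of low products lay on whole steps, it is approximate.

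The members, gene lists and limits were chosen with earlier results of these data known. Genes were named by rank: the smallest interaction p-values where the highest group mean was 30 TPM or more, shared calls by the smaller of both changes, opposite calls, from each list the members with the smallest interaction p and the largest interaction, and a set of well-known fat genes. The gene past the interaction threshold is not reported here. Other list members were chosen after their values were seen. Alternatives were other pseudocounts, filters and scalings, library weights, all 40 libraries, single-depot fits, replicate blocks, omission of each library, and omission of libraries rich in other cells, the last chosen after seeing the data.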

Additional observations from a re-analysis of the deposited data

Results flagged for a closer look

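In 10 of 360 sets of 5 libraries (1 gene in 1 group), 1 library stood apart from the other 4 by Dixon's ratio on the log2(TPM + 1) scale; chance alone would mark about 1 in 20.

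Of these, 3 lay in the normal libraries labelled visceral that were rich in lymphocyte transcripts. Library 94 held 143 TPM of Agpat2 against 98.8 to 106 TPM in the others, and 51.4 TPM of Pecam1 against 39.3 to 41.4 TPM. Library 99 held 174 TPM of Ctsz, a lysosomal protease, against 120.2 to 130.2 TPM. Normal library 92 of the same label listed Mup-ps21 at 0.162 TPM where the others were listed at 0. HFD library 23 labelled visceral held 3016 TPM of Igkc against 71.3 to 122 TPM.

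In the normal libraries labelled subcutaneous, library 91 held 57.7 TPM of Insig1, a sterol-sensing protein, against 69.2 to 73.8 TPM, and 6.93 TPM of Col15a1 against 9.81 to 10.2 TPM. Library 96, rich in epididymis transcripts, held 108 TPM of Col1a1, a fibrillar collagen, against 186 to 211 TPM, and 325 TPM of Aqp1 against 472 to 524 TPM. Library 98 held 451 TPM of Cxcl12, a stromal chemokine, against 577 to 627 TPM. No cause of these gaps was tested.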

How the results depend on the processing

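No named gene past a threshold changed sign under the alternatives run, while the splits into higher and lower calls turned as given above. Several list medians of the interaction turned sign, of which some are given. That of the collagens was 0.15 without the lymphocyte-rich libraries against -0.23 with them, and that of the adipokines 0.04 against -0.40. In the same omission triglyceride synthesis and storage had 0.28 against -0.07, and chemokines and cytokines 0.13 against -0.17. Skeletal muscle genes had -0.62 without the muscle-rich libraries against 1.08 with them. Interaction calls (1) became 5 at a mean of 20 TPM, 16 after quantile normalization, 848 with library weights and 0 with all 40 libraries (652 at an unadjusted p of 0.05). They were 0 without the lymphocyte-rich libraries, 0 without the macrophage-rich ones and 808 without the muscle-rich ones. Visceral calls became 3452 with library weights, 360 with each depot fitted alone, 328 without the lymphocyte-rich and 2676 without the muscle-rich libraries. Subcutaneous calls became 282 without the macrophage-rich libraries. Shared calls became 328 with no filter, 1043 with weights, 234 with depots fitted alone, 235 without the lymphocyte-rich and 173 without the macrophage-rich libraries, of which 185 and 162 were among the 499. The cause of these moves was not tested. Omission of each library in turn gave 1 to 57 interaction calls, 739 to 1414 subcutaneous, 642 to 1877 visceral and 322 to 632 shared. The interaction count was 2 without normal library 92 and 6 without HFD library 23 (subcutaneous), and 9, 57, 40 and 3 without the visceral libraries normal 92, normal 98, HFD 23 and HFD 51. The visceral count was 760, 749, 1877 and 773 without normal 94, 96, 98 and 99, and 742 and 642 without HFD 22 and 50. Titles share 8 numbers between the depots. Of these pairs 2 correlated above 0.1 (-0.114 to 0.137) and 4 correlated best with their own number. So few pairs cannot decide whether a shared number marks 1 animal, and the labels do not say. The main fit left the numbers out. With a replicate block on these numbers (consensus correlation 0.196) the interaction called 61 genes, among them Ednrb, Ccnd2 and Gpd1. With a fixed replicate block it called 4. A planned joint omission by B cell, muscle and epididymis limits was not run, since it removes 16 of 20 libraries. Depth, approximately 4.84 to 8.05 M reads, limits genes below the filter.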

Other observations

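Most tested genes differed less between the depots on HFD. The absolute difference between the depot labels was smaller on HFD than on the normal diet for 4594 of 7695 genes (59.7%). Over the 961 genes with an unadjusted interaction p under 0.05 it was smaller for 733 (76.3%), with median absolute differences of 0.58 on the normal diet and 0.22 on HFD. These genes were chosen by the same contrast, so the share describes them and tests nothing. Without the lymphocyte-rich libraries the shares were 62.4% of all tested genes and 472 of 564 (83.7%) of those chosen in that fit. That omission leaves only the muscle-rich libraries in the normal visceral group. An absolute difference of means also grows with scatter. In the label visceral the B cell sum had an SD of 8820 TPM on the normal diet and 1758 TPM on HFD. The muscle sum had 7347 and 1735.5 TPM. The part of scatter in these shares was not tested. Ednrb and Gpd1 are examples chosen after their values were seen: their HFD libraries overlapped between the depots, whereas their normal libraries did not.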
